A study of Homo sapiens with 4 samples.

Results

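The genes that encode the proteins of the mitochondrial ribosome were compared between control and shM2-3 cells. Members were taken by symbol alone, as every gene named MRPL or MRPS followed by a number and, in the paralogs of MRPS18, a letter. This rule found 78 genes among the 19626 in the tables, on 21 chromosomes, and used no measured value. RNA came from ES-2, an established human line labelled as ovarian clear cell carcinoma that carries an endogenous YAP1-MAML2 (YM) fusion. The cells were transduced with pLKO.1-based lentivirus for 8 h on consecutive days and collected 96 h after the first infection, according to the labels. The shCtl libraries (n = 2 biological replicates) carried a nontargeting shRNA and the shM2-3 libraries (n = 2) an shRNA against MAML2, whose target sequence also lies in the fusion transcript. Both groups are the same line without further genetic changes, and only 1 shRNA against MAML2 was sequenced, so the effect of its target and any other effect of that shRNA cannot be told apart.

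Mitochondria keep a ribosome of their own, which translates the few mRNAs of mitochondrial DNA into core subunits of the respiratory chain and ATP synthase. Its rRNAs are transcribed from mitochondrial DNA, whereas its proteins are encoded in the nucleus, made in the cytosol and imported. Some of these proteins descend from bacterial ribosomal proteins and carry the prefix u or b in the standard names (uL2, bL33). The others, with the prefix m (mL39, mS26), are specific to mitochondria and form much of the outer shell of the particle. Promoters of many of these genes are compact and rich in CpG, and words bound by ETS factors such as GABPA and by YY1 are common in nuclear genes for mitochondrial proteins.

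Promoter windows from RefSeq (GRCh38.p14, from 250 bases before to 50 bases after an annotated start) were found for 69 of the 78 members. The ETS word CCGGAAG, read on both strands, was present in 43.5% of the members with a window, and in 22.9% of the 9571 tested genes and 12.2% of all 27305 genes with one. The YY1 word AAGATGGC was present in 30.4% of these members, in 6.81% of the tested genes and in 3.52% of all genes with a window. Some genes have several windows (a mean of 1.23 for members and 1.46 for tested genes), and a gene was counted when any of them held the word. The sequences below are given 5′ to 3′ on the strand of the gene with the word in capitals. They were chosen after values were seen, from members with large and with small changes in mRNA. The first group holds the ETS word.
MRPL33 (chr2:27771701-27771727, plus strand): gggccgtgccCCGGAAGcagttgttgt
MRPS26 (chr20:3046005-3046031, plus strand): ccccgcgccgCTTCCGGggcacggtgg
MRPL58 (chr17:75012652-75012678, plus strand): gaagcgcccgCCGGAAGcagtcgcaag
MRPS21 (chr1:150293840-150293866, plus strand): gtaatttccgCTTCCGGtagtgagaac
MRPS23 (chr17:57850042-57850068, minus strand): ggagcagccgCTTCCGGttccggtagc
The second group holds the YY1 word.
MRPL49 (chr11:65122334-65122361, plus strand): gtagcaggtaAAGATGGCagctaccatg
MRPS30 (chr5:44808950-44808977, plus strand): atcgcgggcaAAGATGGCggcggccagg
MRPL45 (chr17:38297171-38297198, plus strand): ttgcgggaacAAGATGGCagcccccata
MRPL46 (chr15:88467363-88467390, minus strand): gggagaacgaAAGATGGCggcgcccgta
MRPL36 (chr5:1799855-1799882, minus strand): cccccccgccGCCATCTTccttcctggc
In MRPL33 and MRPL49 the words stood beside the start of genes whose mRNA fell, and in MRPS23 and MRPL45 they stood at genes whose mRNA did not pass the test. Both words were found in 8 members, at least 1 of them in 43, and in no member did the letters of an ETS and a YY1 match overlap.

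Estimated counts totalled 20051083 and 20423873 in the control libraries, and 23978660 and 21813798 after shM2-3. Of all genes, the 12157 whose RPKM exceeded 1 in any library were tested by edgeR's quasi-likelihood test, and p values were adjusted by the Benjamini-Hochberg method over all of them. MAML2, the targeted gene, had RPKM values of 8.61 and 8.26 in shCtl and 3.11 and 3.0 in shM2-3 (log2 fold change -1.40, adjusted p = 5.18e-10 edgeR, Benjamini-Hochberg), and reads of the MAML2 part of the fusion are included. KRT8, KRT18 and VIM, keratins of simple epithelia and an intermediate filament of mesenchymal cells, were all well above an RPKM of 20 in every library, and ARID1A was between 13.4 and 17.4. The epithelial markers EPCAM, KRT19 and CDH1 and the ovarian and clear cell markers PAX8 and NAPSA were near 0, so these markers were at or near background in the control libraries too. Markers of other cells were low: the fibroblast gene COL1A2 did not exceed 0.413, PTPRC and CD3E of leukocytes were near 0, and LYZ did not exceed 2.34. Several markers moved with the groups. KRT8 went from 73.3 and 70.5 RPKM in the controls to 29.1 and 29.7, KRT18 from 294 and 299 to 176 and 179, and VIM from 2873 and 2969 to 2037 and 2088. ARID1A went from 13.9 and 13.4 to 16.6 and 17.4, and CD14 from 0.0777 and 0.102 to 0.890 and 0.866. Their part in the member levels was not tested.

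The mRNAs of most mitochondrial ribosomal proteins were lower in shM2-3 cells, by modest amounts. All 78 members passed the filter on low values, and 57 were lower at an adjusted p of 0.05 or less, 1 was higher and 20 did not pass. Over all genes tested, 36.4% were lower and 36.3% were higher by the same rule, and among the members these shares were 73.1% and 1.28%. The median log2 fold change of the members was -0.46 (interquartile range from -0.67 to -0.19), whereas the median of all genes tested was -0.0037. Members below 0 numbered 67 of 78.

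At a fold change of 2 or more, 4 of the 78 members were lower, beside 8.93% of all genes tested, and 0 were higher, beside 9.24%. The member count in this stricter class was thus below the background, whereas at a fold change of 1.5 or more 30 of the 78 were lower, beside 18.9% of all genes tested. For the class of 0 higher members, 1 member was above 0 at an unadjusted p under 0.05 with edgeR, and DESeq2 and limma also called 0. By RPKM, both shM2-3 libraries were below both controls in 66 members and above them in 2, beside 47.1% and 38.9% of all genes tested. The ranges of the other 10 overlapped. The 66 are not all lower in the edgeR fit, since MRPS23 had a log2 fold change of 0.04 there. RNA of a bulk culture was measured, so a smaller share of cells with high levels and less mRNA per cell cannot be told apart.

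**Figure D1:**
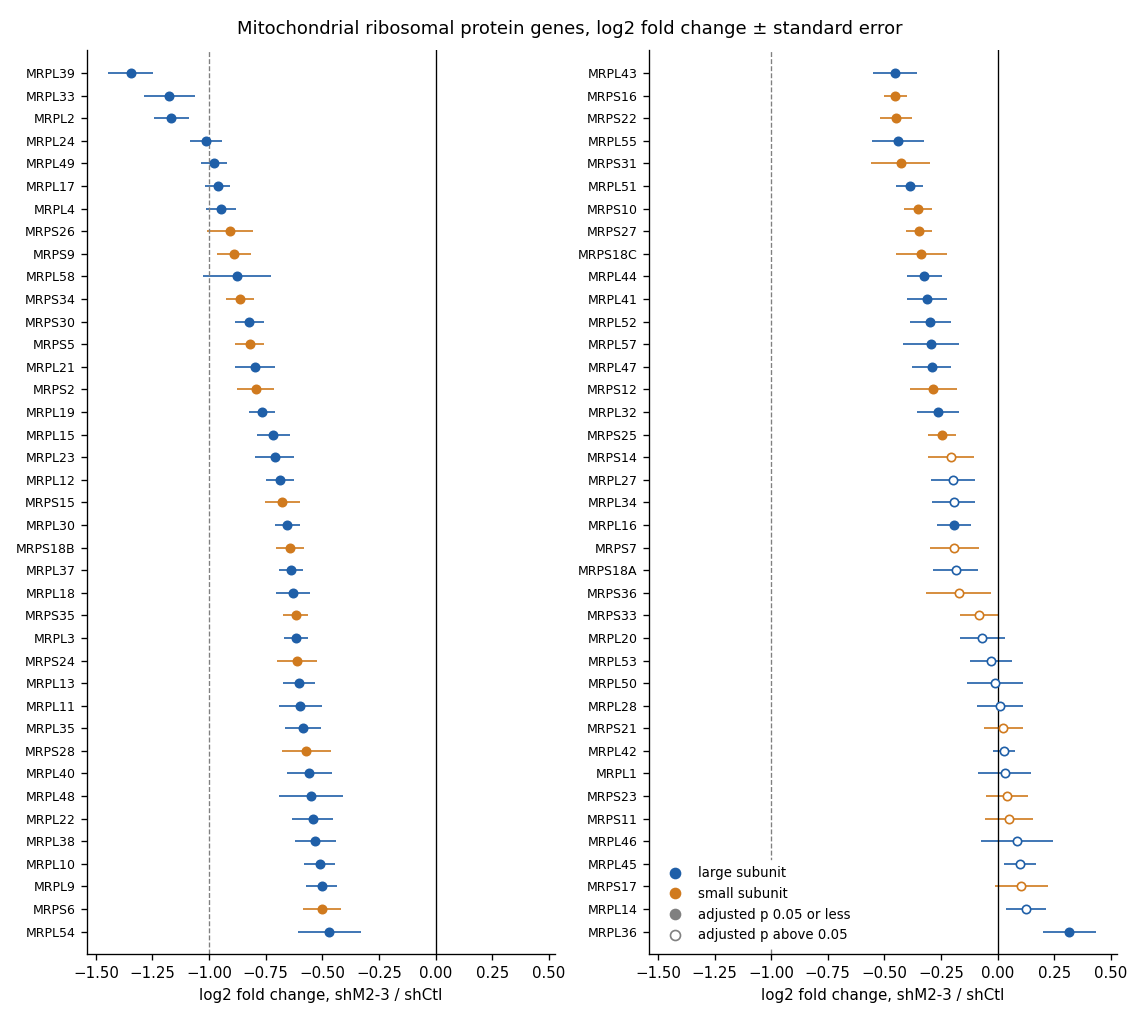
Log2 fold change (shM2-3 over shCtl) of each of the 78 genes with its standard error, in order from the lowest, with blue for the large and orange for the small subunit and filled points for an adjusted p of 0.05 or less. The points run from -1.35 in MRPL39 to 0.32 in MRPL36, 67 of them lie to the left of 0, and 4 lie left of the dashed line at a fold change of 2.

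The 4 members past a fold change of 2 all belong to the large subunit. MRPL39 (mL39, ENSG00000154719.14), a mitochondria-specific protein, lies on chromosome 21 of hg38 from 25585656 to 25607517 on the minus strand. Its RPKM was 21.7 and 22.1 in shCtl and 8.03 and 8.42 in shM2-3. Both shM2-3 libraries were far below both controls, and the estimated counts went from 590 and 613 to 268 and 254. The log2 fold change of MRPL39 was -1.35 (standard error 0.0994, adjusted p = 3.76e-08 edgeR, Benjamini-Hochberg).

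MRPL33 (bL33, chromosome 2 from 27771717 to 27988087, plus strand) encodes a small bacterial-type protein. Its RPKM was 57.5 and 55.6 in shCtl and 21.0 and 27 in shM2-3, and the log2 fold change was -1.17 (standard error 0.113). The groups were well apart, although the pair of shM2-3 libraries differed more than the controls did. An annotated exon of MRPL33 overlaps one of BABAM2, which was itself lower (log2 fold change -1.56), and reads in the overlap could be counted for either gene.

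MRPL2 (uL2, chromosome 6 from 43054029 to 43059438, minus strand) lies close to the peptidyl transferase centre, where peptide bonds are formed. MRPL2 RPKM was 35.9 and 38.2 in shCtl and 15.4 and 16.1 in shM2-3 (log2 fold change -1.17, standard error 0.0764). MRPL24 (uL24, chromosome 1 from 156737303 to 156741590, minus strand), at the rim of the tunnel through which the new chain leaves, had 63.4 and 58.9 in shCtl and 28.8 and 29.0 in shM2-3 (log2 fold change -1.02, standard error 0.0707). In both genes each shM2-3 library was below every control library. The exons of MRPL2 overlap those of KLC4 (log2 fold change -0.47), whereas MRPL24 and MRPL39 share no annotated exon with another gene of the tables.

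The next 6 members in order fell by nearly as much. MRPL49 (mL49) had an RPKM of 38 and 37.5 in shCtl and 18.6 and 18 in shM2-3, and a log2 fold change of -0.98. MRPL17 (bL17), at the tunnel exit, went from 39.2 and 38.8 to 19.7 and 18.5 RPKM (-0.96 on the log2 scale). MRPL4 (uL4), which lines the tunnel, went from 27.6 and 27.7 to 14.3 and 13.1 (-0.95). In these genes the difference between groups was many times the difference within a group. MRPS26 (mS26) had 22.7 and 26.2 RPKM in shCtl and 12.2 and 12.7 in shM2-3, a log2 fold change of -0.91. MRPS9 (uS9), a protein of the head of the small subunit, had 30.2 and 28.7 against 15.2 and 15.1 (-0.89). MRPL58 (mL62, also known as ICT1) is a peptidyl-tRNA hydrolase that frees chains from stalled mitochondrial ribosomes. MRPL58 RPKM was 11.1 and 12 in shCtl and 5.94 and 6.08 in shM2-3, and its log2 fold change of -0.88 had the larger standard error of 0.152 (adjusted p = 1.52e-04, edgeR with Benjamini-Hochberg adjustment).

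**Figure D2:**
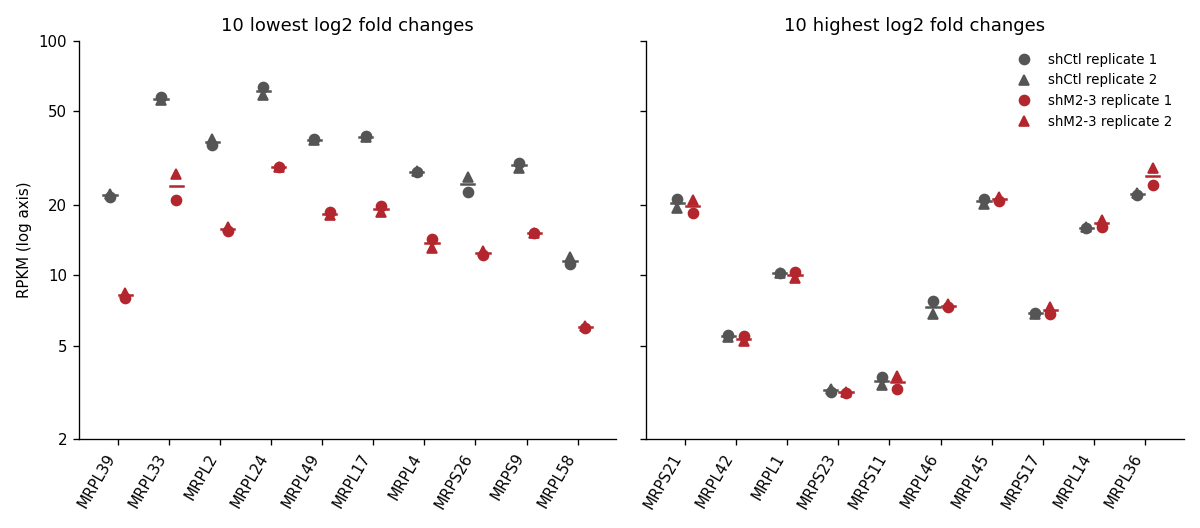
RPKM in each library (log axis) of the 10 members with the lowest and the 10 with the highest log2 fold changes, with circles for replicate 1, triangles for replicate 2 and bars for the group mean. On the left the groups are separated in every gene, and on the right the group means lie close together except in MRPL36, which was 22 and 22.5 in shCtl and 24.2 and 28.8 in shM2-3.

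By subunit, 38 of the 51 large subunit members were lower and 1 was higher (median log2 fold change -0.51). Of the 27 small subunit members, 19 were lower and 0 were higher, with a median of -0.43. No small subunit member was above 0 at an unadjusted p under 0.05 with edgeR, and DESeq2 and limma called 0 of them higher. The 46 bacterial-type members had 34 lower, 1 higher and a median of -0.53, and the 32 mitochondria-specific members had 23 lower, 0 higher and a median of -0.41. In each of these classes the share of lower members was therefore above 70%, beside 36.4% of all genes tested, and differences between the classes were not tested.

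Sites were described by short lists of selected members, which do not hold every protein of a site. Their counts stand beside 73.1% lower among all 78 members and 36.4% among all genes tested. Differences between sites were not tested. Among the sites of the large subunit described here, the exit tunnel had the lowest median. Of the 7 members in and around it, 6 were lower (median log2 fold change -0.71), among them MRPL22 (uL22), which lines the tunnel, at -0.54. MRPL45 (mL45), which tethers the particle to the inner membrane at the tunnel exit, did not pass, with 21.2 and 20.1 RPKM in shCtl and 20.8 and 21.5 in shM2-3. Near the peptidyl transferase centre, 3 of 4 members were lower, and they spanned a wide range. MRPL2 was at -1.17, MRPL3 (uL3) at -0.62 and MRPL16 (uL16) at -0.19, and MRPL27 (bL27) was at -0.20 with an adjusted p of 0.0826 (edgeR, Benjamini-Hochberg). The call of MRPL16 was lost with DESeq2 and in each fit without 1 library.

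The L7/L12 stalk, which recruits translation factors, had 4 of 5 members lower (median -0.51), beside 73.1% of all members and 36.4% of all genes tested. MRPL12 (bL12), the stalk protein that is also known to bind the mitochondrial RNA polymerase, had an RPKM of 66.8 and 69.1 in shCtl and 39.1 and 41.5 in shM2-3. Its libraries were cleanly separated, and the log2 fold change was -0.69 (standard error 0.0613). MRPL10 (uL10), the base of the stalk, was at -0.51 and MRPL11 (uL11) at -0.60, whereas MRPL53 (mL53) was at -0.03 with 41.7 and 38.6 RPKM against 38 and 37.0. MRPL1 (uL1), the protein of the other stalk, which guides spent tRNA out of the particle, had 10.3 in both controls and 10.3 and 9.71 in shM2-3, so its groups overlapped. Of the 5 members listed for the central protuberance, 4 were lower, from MRPL18 (uL18) at -0.63 to MRPL38 (mL38) at -0.53. MRPL46 (mL46), the fifth, was at 0.08 with overlapping groups.

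In the small subunit, all 4 members listed for the mRNA channel and decoding site were lower (median log2 fold change -0.70). Among all members 73.1% were lower, and among all genes tested 36.4%. MRPS5 (uS5) had an RPKM of 17.5 in both controls and of 9.67 and 9.25 in shM2-3, and a log2 fold change of -0.82. MRPS2 (uS2) had 21.4 and 23.9 against 11.7 and 13.3 (-0.79). MRPS24 (uS3), at the mRNA entry, had the highest mean level of all members, with 77.8 and 72.4 RPKM in shCtl and 42.6 and 51.4 in shM2-3 (-0.61). MRPS12 (uS12), which monitors the pairing of codon and anticodon, was lower by less, at -0.28, and this call was lost with DESeq2, without shCtl replicate 1 and without shM2-3 replicate 2. Of the 4 members listed for the head, 2 were lower (median -0.28), MRPS9 and MRPS10 (uS10, -0.35). MRPS7 (uS7) and MRPS14 (uS14) did not pass at -0.19 and -0.21. Of the 4 members listed for the platform, 2 were lower (median -0.16), MRPS6 (bS6, -0.50) and MRPS18C. MRPS11 (uS11) and MRPS21 (bS21) lay at 0.05 and 0.03.

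The paralogs of MRPS18 descend from a bacterial S18 gene but sit in different places. MRPS18B (mS40), a small subunit protein, had an RPKM of 53.0 and 52.7 in shCtl and 30.8 and 34.0 in shM2-3, and a log2 fold change of -0.64 (standard error 0.0627). MRPS18C (bS18), which takes the bacterial position in the small subunit, had 8.55 and 8.51 against 6.44 and 6.46 (-0.34, standard error 0.113). MRPS18A (mL66), which belongs to the large subunit, had 16.6 and 18.5 against 15.5 and 14.0 (-0.19, standard error 0.0981). The groups did not overlap in any of the 3 paralogs, but MRPS18A did not pass the test. The adjusted p values by edgeR with Benjamini-Hochberg adjustment were 6.48e-07 for MRPS18B, 0.0163 for MRPS18C and 0.104 for MRPS18A. With DESeq2 that of MRPS18C was 0.0774, without shCtl replicate 1 it was 0.0646 and without shM2-3 replicate 1 it was 0.0584, and with limma on log2(RPKM + 0.1) that of MRPS18A was 0.0236. The difference between paralogs was not tested.

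At the other end of the order, 11 members had a log2 fold change above 0, and of these MRPL36 alone passed. MRPL36 (bL36, chromosome 5) encodes a very small zinc-binding protein of the large subunit. Its estimated counts were 314 and 326 in the controls and 422 and 455 after shM2-3, and the RPKM values were 22 and 22.5 against 24.2 and 28.8. Both shM2-3 libraries were above both controls, although the second was much higher than the first. The log2 fold change was 0.32 (standard error 0.116, adjusted p = 0.0250 edgeR, Benjamini-Hochberg). The call was lost with DESeq2 (adjusted p = 0.0782), without shCtl replicate 1 (0.0672) and without shM2-3 replicate 2 (0.233, with a log2 fold change of 0.18).

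Among the other members near 0, MRPL14 (uL14) had 15.8 and 16.1 RPKM in shCtl and 16.1 and 17.2 in shM2-3, a log2 fold change of 0.12. MRPS17 (uS17) had 6.94 and 6.87 against 6.84 and 7.34 (0.11), and MRPL42 (mL42) had 5.59 and 5.44 against 5.5 and 5.24 (0.03). MRPS23 (mS23) had the lowest mean level of all members, 3.19 and 3.27 in shCtl and 3.16 and 3.19 in shM2-3 (0.04). In these genes the groups differed by no more than the replicates did, apart from MRPL14 and MRPS23, whose ranges touched without crossing. MRPL28 (bL28), at 0.01, had 17.4 and 22 RPKM in the shM2-3 libraries and 20.2 and 20.7 in the controls. MRPS36, whose product is now known mainly as a part of the 2-oxoglutarate dehydrogenase complex in spite of its name, was at -0.17 (7.66 and 7.02 RPKM against 6.64 and 5.81).

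Levels are compared between genes on the RPKM scale, which divides by transcript length. Summed over the 78 members, RPKM was 2063 and 2076 in the shCtl libraries and 1351 and 1396 in the shM2-3 libraries. The control mean was 2070 ± 8.99 (SD, n = 2). The mean after shM2-3 was 1374 ± 31.9 (SD, n = 2), or 66.4% of it. As a share of the RPKM of all genes, the members made up 0.636% and 0.638% in shCtl and 0.470% and 0.472% in shM2-3. The total RPKM of all genes was also lower in shM2-3, at 287746 and 295653 against 324319 and 325563 in shCtl, and the drop of the share is what remains after this.

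The subunits went down together. Large subunit members kept 66.5% of their summed RPKM and small subunit members 66.1%. The ratio of the summed large to the summed small subunit level was 2.19 in each control library and 2.21 and 2.19 after shM2-3. Members with high levels tended to have the lower log2 fold changes (Spearman's rho -0.43 over the 78 genes with the mean log2 RPKM over the 4 libraries, and -0.06 over the 12157 genes tested). This is a description across genes, which share libraries, and the shCtl libraries enter both values. The spread of levels among the members was smaller in shM2-3, with an SD of log2 RPKM of 0.951 and 0.957 against 1.07 and 1.09 in shCtl.

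**Figure D3:**
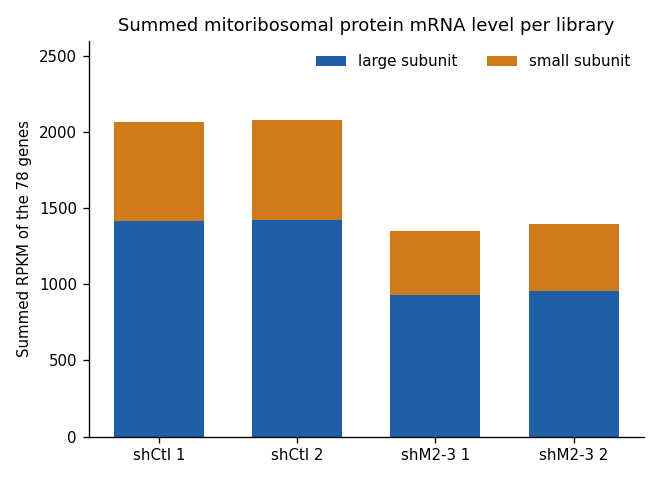
Summed RPKM of the members in each library, stacked as large subunit (blue) and small subunit (orange). The shCtl bars reach 2063 and 2076 and the shM2-3 bars 1351 and 1396, and the large subunit takes a like part of each bar.

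Transcript length moved with the changes over the whole table. Across 12120 tested genes, the log2 fold change and the length implied by the ratio of counts to RPKM had a Spearman's rho of 0.19, so shorter transcripts tended to be lower. The members are short, and their median length stood at percentile 10.8 of the tested genes. Within the 78 members the same rho was 0.05. The part of transcript length in the lower member levels was not tested.

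Some members share annotated sequence or a promoter region with other genes. Exons of 28 members overlap an exon of another gene in the tables, and reads there cannot be given a strand because the libraries were not strand-specific. Of these 28, 20 were lower, and of the 50 without such an overlap 37 were lower. Of all 78 members 73.1% were lower, and of all genes tested 36.4%. The exons of MRPL34 overlap those of ABHD8, which was higher (log2 fold change 1.87), and those of MRPL49 overlap SYVN1 (0.22). MRPL34 itself was at -0.19 and did not pass.

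For 23 members, a tested gene on the opposite strand started within 1000 bases, which made 22 distinct pairs. A start here is the outermost annotated bound of a gene in GENCODE. It can differ from the RefSeq starts used for the promoter windows, and so can the distances. The 16 lower members of these pairs had 9 partners that were lower, 2 that were higher and 5 that did not pass. Over all 23 members, 11 partners were lower, 5 were higher and 7 did not pass. Of all genes tested, 36.4% were lower and 36.3% were higher, and whether partners moved with members was not tested. MRPL49 and FAU, which encodes a cytosolic ribosomal protein, have outermost starts 6 bases apart and were both lower, at -0.98 and -0.28. The RefSeq start behind the MRPL49 sequence above lies further inside the gene. MRPL18 and TCP1, a subunit of the cytosolic chaperonin, were at -0.63 and -0.80. Other pairs parted. MRPL36 was at 0.32, while NDUFS6, a subunit of respiratory complex I, was at -0.75 (27.8 and 32.0 RPKM in shCtl, 14.8 and 19.2 in shM2-3). Their outermost starts lie 41 bases apart. The RefSeq window that holds the MRPL36 sequence above (1799855 to 1799882) lies well inside the outer bound of 1801366. That RefSeq start is further from NDUFS6 than the limit used for pairs. MRPS18B was at -0.64 beside PPP1R10 at 1.09, and MRPL27, at -0.20, did not pass beside EME1 at -1.41. MRPS11 and MRPL46, both members, start 63 bases apart and neither passed.

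**Figure D4:**
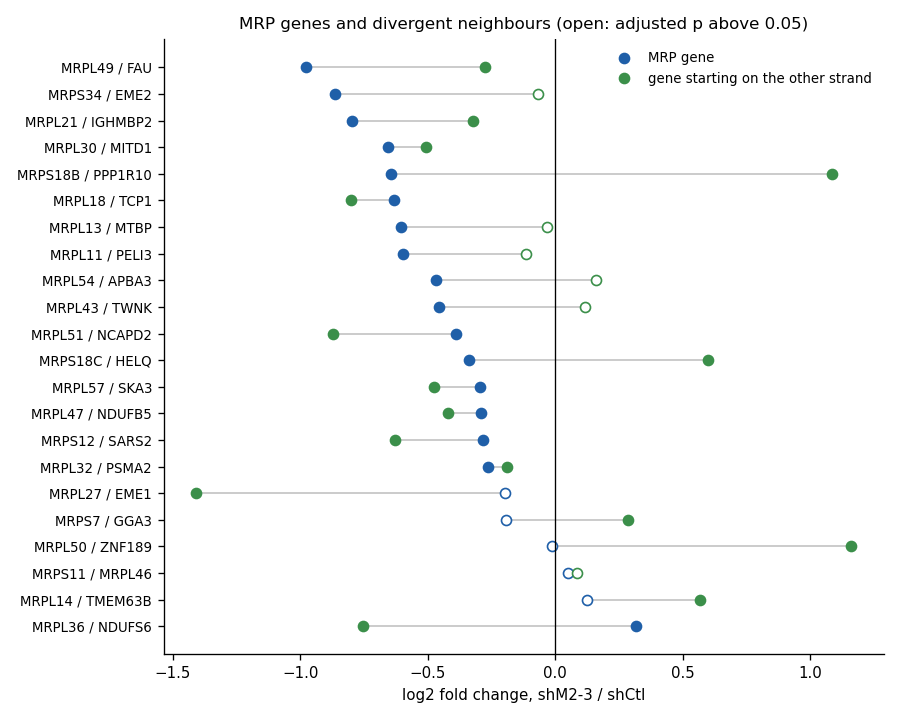
Log2 fold changes of members (blue) and of the tested genes that start within 1000 bases on the other strand (green), by outermost GENCODE starts. A line joins each of the 22 pairs, and open points mark an adjusted p above 0.05. Some lines are short, as between MRPL30 and MITD1, and others cross 0, as between MRPS18B at -0.64 and PPP1R10 at 1.09.

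Medians and counts of lower members were compared between members with and without each promoter word. The counts stand beside 73.1% lower among all 78 members and 36.4% among all genes tested. The median log2 fold change was -0.41 for members with the ETS word and -0.50 for those without it, with 22 of 30 and 27 of 39 lower. For the YY1 word the medians were -0.29 and -0.49, with 13 of 21 and 36 of 48 lower. The E-box CACGTG, which MYC and other factors can bind, was found in 13% of members and 12.6% of tested genes, and the TEAD word GGAATG in 15.9% and 15.1%. With and without the TEAD word the median log2 fold changes were -0.54 and -0.37, with 8 of 11 and 41 of 58 lower. For the E-box they were -0.34 and -0.44, with 5 of 9 and 44 of 60 lower. The NRF1 word GCGCATGC was found in 8.70% of members and 6.66% of tested genes. The median was -0.44 both with and without it, with 6 of 6 and 43 of 63 lower. The differences between medians were not tested, and a match is a string of letters in a window and not a measured binding site.

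Of 8 listed proteins of the mitochondrial ribosome that carry other names, 5 were found in the tables, and these moved the same way. All 5 were lower (median log2 fold change -0.40), beside 36.4% of all genes tested. They ran from PTCD3 (mS39) at -0.49 to DAP3 (mS29), a GTP-binding small subunit protein, at -0.31. PTCD3 had an RPKM of 12.1 and 11.9 in shCtl and 8.20 and 8.11 in shM2-3, and DAP3 had 52.5 and 48.6 against 38.9 and 39. Levels counted for the mitochondrial rRNAs were also lower. Such values can also change with how RNA was selected for the libraries, and the part of that step was not tested. RNR1, the 12S rRNA of the small subunit, had a log2 fold change of -0.44 and RNR2, the 16S rRNA of the large subunit, of -0.28. These were the only 2 of 30 listed genes of mitochondrial DNA found by symbol, and its other transcripts were not analysed here.

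Among 28 factors of ribosome assembly in mitochondria, 15 were lower (53.6%) and 7 were higher (25%), with a median log2 fold change of -0.29. Of all genes tested, 36.4% were lower and 36.3% were higher. RPUSD3, a protein of the pseudouridine synthase family, was the lowest, with 26.7 and 28.3 RPKM in shCtl and 9.51 and 11.3 in shM2-3 (-1.33). NGRN, which acts with RPUSD3 and other proteins on the 16S rRNA, was the highest, with 4.52 and 4.76 against 8.59 and 8.30 (0.93). The lowest assembly factor was thus near the lowest member, and the highest was above the highest member. Of the 20 mitochondrial aminoacyl-tRNA synthetases, which charge tRNAs with amino acids, 12 were lower (60%) and 2 were higher (10%). Their median was -0.61, and they ran from CARS2 at -0.99 to PARS2 at 0.44. The call of PARS2 was lost with DESeq2 (adjusted p = 0.103) and in each fit without 1 library.

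Of the 18 tested mitochondrial translation factors, 6 were lower (33.3%) and 3 were higher (16.7%), with a median of -0.12. SLIRP, an RNA-binding protein that stabilizes mitochondrial mRNAs, was the lowest, with 49.7 and 43.8 RPKM in shCtl and 20.1 and 20.4 in shM2-3 (-1.14). PDF, a peptide deformylase, was the highest at 0.58. Of the 21 tested genes that maintain mitochondrial DNA and RNA, 8 were lower (38.1%) and 5 were higher (23.8%), with a median of -0.06. The shares of both lists stand beside 36.4% lower and 36.3% higher over all genes tested. SSBP1, the single-stranded DNA-binding protein, was at -0.60, HSD17B10, a subunit of mitochondrial RNase P, was at 0.70, and TFAM, which packages mitochondrial DNA and starts its transcription, was at 0.46. TFAM had 11.6 and 11.5 RPKM in shCtl and 15.4 and 15 in shM2-3, opposite in direction to most members.

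**Figure D5:**
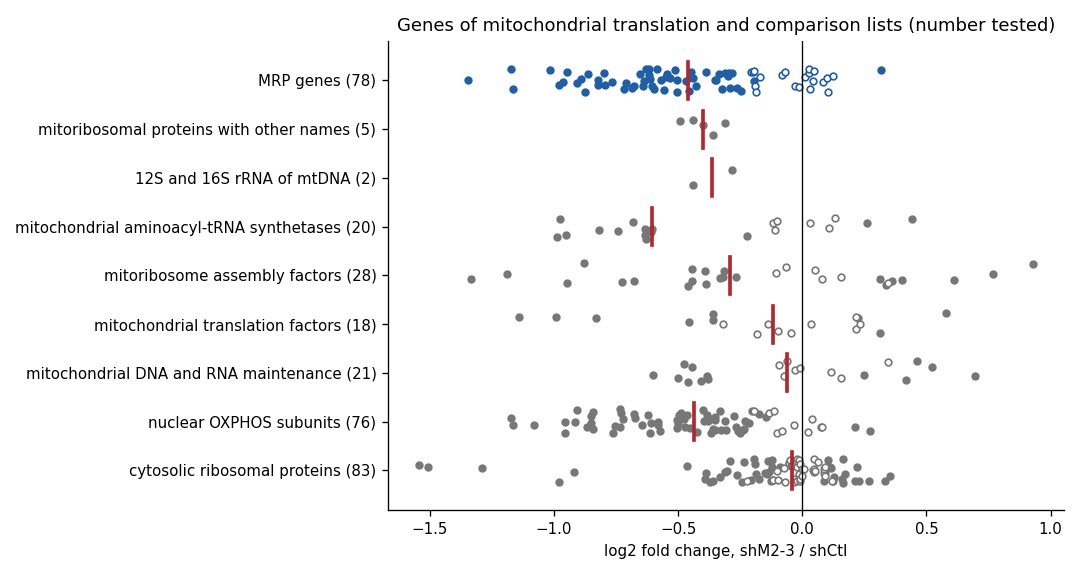
Log2 fold changes of the members (blue) and of other gene lists (grey), 1 point per tested gene, with a red bar for the median of each list and open points for an adjusted p above 0.05. The medians of the members (-0.46), of the other mitoribosomal proteins (-0.40) and of the nuclear OXPHOS subunits (-0.44) lie left of 0, and that of the cytosolic ribosomal proteins (-0.04) lies near it.

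A pair of comparison lists is shown beside the members. Nuclear-encoded subunits of oxidative phosphorylation (OXPHOS), which assemble with the proteins that the mitochondrial ribosome makes, had 64 of 76 lower, 2 higher and a median log2 fold change of -0.44. CYC1, the cytochrome c1 of complex III, was the lowest, with 142 and 146 RPKM in shCtl and 63.7 and 58.0 in shM2-3 (-1.17). NDUFB11 was the highest at 0.27, and without shM2-3 replicate 2 it was at 0.16 and lost its call (adjusted p = 0.142, edgeR with Benjamini-Hochberg adjustment). Cytosolic ribosomal protein genes had 31 of 83 lower, 17 higher and a median of -0.04. They ran from RPL22L1, a paralog of RPL22, at -1.54 to RPS27 at 0.35. The 3 that were lower at a fold change of 2 or more were RPL22L1, RPS27L (-1.51) and RPL39L (-1.29). RPS27 lost its call with DESeq2 (adjusted p = 0.157), with limma, and without shM2-3 replicate 2 (log2 fold change 0.11). The share of lower genes was thus near the background in the cytosolic list (37.3% beside 36.4%) and above it in the mitochondrial members and the OXPHOS list (84.2%). The share of higher genes was below the background of 36.3% in the cytosolic list (20.5%), the members (1.28%) and the OXPHOS list (2.63%).

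Genes known to regulate mitochondrial biogenesis moved in both directions. Of 9 tested, 3 were lower (33.3%) and 5 were higher (55.6%), beside 36.4% and 36.3% of all genes tested. MYC, a transcription factor that promotes ribosome and mitochondrial biogenesis, had 99.7 and 99.8 RPKM in shCtl and 12.8 and 12.7 in shM2-3, a log2 fold change of -2.90. PRMT5 was at -0.71 and the nuclear receptor ESRRA at -0.46. The subunits of the ETS-type factor GABP were higher, GABPA at 0.33, GABPB1 at 0.57 and GABPB2 at 0.91, as was YY1 at 0.38 (23.8 and 23.3 RPKM against 29.6 and 28.9). NRF1 was at -0.06 with an adjusted p of 0.651 (edgeR, Benjamini-Hochberg). PPARGC1A and PPARGC1B, coactivators of these factors, had an RPKM of 1 or less in every library and were not tested. The part of any of these regulators in the member levels was not tested.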

How the data were processed

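RNA-seq of ES-2 cells with shCtl or shM2-3 was analysed, with 2 libraries per group taken from the labels. The authors aligned paired reads of 150 bases to hg38 with HISAT2 2.0.4, removed ambiguous reads and those of low mapping quality, and quantified RefSeq genes in Partek 7.18. The deposited estimated counts need not be whole (42.4% to 48.6% of the values in a library are exact whole numbers, zeros included) and were rounded, since the design had assumed whole counts. The deposited RPKM values scale these counts by transcript length and library.

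All 12157 genes whose RPKM exceeded 1 in any library were fitted with the quasi-likelihood test of edgeR 4.0.16 under R 4.3.3, using TMM factors and no block, with Benjamini-Hochberg adjustment over all of them. A call is an adjusted p of 0.05 or less, and where stated a fold change of 2 or more. A standard error is the log2 fold change divided by the square root of F. The biological coefficient of variation was 0.0485, and p values rest on 2 libraries per group. The counts of a member in a library lay between 141 and 2739. The fit was tested on simulated data.

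Alternatives were DESeq2 1.42.0, limma 3.58.1 on log2(RPKM + 0.1) and log2(RPKM + 1), total counts, other filters, a fold change of 1.5, a replicate block, and fits that left out 1 library each. Counting only members without exon overlap was chosen after seeing the data. Members, lists, sites and promoter words were chosen with earlier results of these data known. Named genes are the 10 members with the lowest and the 10 with the highest log2 fold changes, the members with the highest and the lowest mean RPKM, those past the fold limit, the MRPS18 paralogs, MRPL12, MRPL58, MAML2, overlapping genes and the lowest and highest gene of each list. Other members and regulators, NDUFS6, TFAM and the genes beside members were named for their site, list or position after values were seen. Coordinates are from GENCODE release 44 on hg38 and promoters from RefSeq GRCh38.p14. They were matched by symbol. Some marker genes are not reported here.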

Additional observations from a re-analysis of the deposited data

How the results depend on the processing

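The number of lower members lay between 51 and 62 over the alternatives that kept all members, and 48 members were lower in every one of the 12 alternative fits, the RPKM filter of 5 leaving 75 members to test. The share of lower genes among all genes fitted also moved. It was 26.1% without the RPKM filter, 32.4% with DESeq2 and 38.3% with total counts. With limma it was 39.4% on log2(RPKM + 0.1) and 39.6% on log2(RPKM + 1). Of the 50 members without exon overlap, 37 were lower, with 2 at a fold change of 2 or more and a median log2 fold change of -0.52. The number lower at a fold change of 2 or more was 7 with limma on log2(RPKM + 0.1), and 30 members were lower at a fold change of 1.5. The number of higher members was 0 with DESeq2, which had 0 also at an unadjusted p under 0.05, and ranged from 0 to 1 when a library was left out. The median log2 fold change of the members was -0.50 with total counts, -0.49 without the RPKM filter, -0.53 with limma on log2(RPKM + 0.1) and -0.50 with limma on log2(RPKM + 1). With any library left out, the lower members numbered 51 to 55 and the median ran from -0.49 to -0.44. Members below 0 numbered 66 to 73 over these fits. The replicate block gave 57 lower members and a median of -0.46, and same-numbered libraries did not deviate together (r = 0.02 over 11051 genes), so the numbers were not taken as pairs. Of 524 values for 44 named genes under the alternatives, 16 lost their call, 2 gained one and 506 did neither, and no called direction was reversed. The lost calls were those of MRPL36, MRPS18C, PARS2, NDUFB11 and RPS27, and the gained ones were those of MRPS18A with limma. Among the other members, MRPL16, MRPL32, MRPL47, MRPL52, MRPL54, MRPL57, MRPS12 and MRPS31 lost their call in at least 1 fit. A group left with 1 library was assumed to vary like the other. With 2 libraries per group, changes of small size in members with few counts could not be told from replicate spread.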
